A study of Rattus norvegicus with 9 samples.

Results

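The cytochrome P450 genes of the rat kidney are described here as measured on 9 arrays from a model of donation after circulatory death. Every gene probe whose name on the array is Cyp followed by a digit was taken, which gave 97 of 30367 gene probes and 80 of 26115 gene names. NP kidneys (n = 5) came from Fisher F344 rats, had 20 min. of warm ischaemia and received no perfusion. MSC kidneys (n = 4) also came from Fisher F344 rats and had equal warm ischaemia. Cold Belzer solution (BS) with 3000000 mesenchymal stromal cells was then run through them for 4 hrs at 4°C. These cells came from the bone marrow of Sprague Dawley rats that carry EGFP. MSC and NP kidneys therefore differed in perfusion as well as in MSC, and these cannot be told apart. Titles of the NP samples name 4 hrs of perfusion with BS, while their treatment field and the study's methods call them not perfused, and the latter is followed here. An MSC array that the study discarded was not analysed here. Each array measured RNA of 1 kidney, so fewer cells of a type and less RNA per cell cannot be told apart, and the sex of the rats is not given in the sources used here.

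Cytochrome P450 enzymes are haem proteins that insert an oxygen atom into lipids, steroids, vitamins, drugs and toxins. Those of the endoplasmic reticulum take electrons from the reductase Por, and those of mitochondria take them from adrenodoxin reductase through the ferredoxin Fdx1. The proximal tubule is the main site of P450 enzymes in the kidney. There, Cyp4a enzymes hydroxylate the end of fatty acid chains, Cyp2c and Cyp2j enzymes turn arachidonic acid into epoxides that act on vessels and sodium transport, and Cyp27b1 and Cyp24a1 make and break the active form of vitamin D. Members of the Cyp1, Cyp2 and Cyp3 families are best known from the liver, where they oxidise drugs.

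Each probe is a 60 base stretch of the transcript. The probes of Cyp2r1, Cyp27a1 and Cyp24a1 are printed because these enzymes open, share in and close the vitamin D pathway, and those of Cyp2d2 and Cyp2d4 because these genes lie in 1 cluster on chromosome 7. The printed probes of Cyp24a1 and Cyp2d4 are not those the test used, and their own values are given beside the result. They are given whole, in lower case, with their rn4 position from the array files.
Cyp2r1, chr1:172593244-172593303, minus strand: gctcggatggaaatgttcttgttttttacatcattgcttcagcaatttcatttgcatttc
Cyp27a1, chr9:74067772-74067831, plus strand: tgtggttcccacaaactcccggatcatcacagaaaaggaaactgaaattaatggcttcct
Cyp24a1, chr3:161542181-161542240, minus strand: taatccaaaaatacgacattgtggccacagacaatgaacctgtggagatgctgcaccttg
Cyp2d2, chr7:120798606-120798665, minus strand: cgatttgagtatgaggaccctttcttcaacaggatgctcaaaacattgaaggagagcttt
Cyp2d4, chr7:120743218-120743277, minus strand: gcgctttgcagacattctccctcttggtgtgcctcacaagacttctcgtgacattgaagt

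P450 genes of a subfamily resemble each other, and a probe can then take up the RNA of a relative. Probes were compared with each other only, not with the transcripts of related genes, so uptake of a relative's RNA by other probes was not tested. Among 4637 pairs of Cyp probes for different genes, 3 shared a run of 15 or more bases. The longest run, 55 of 60 bases, was shared by the probes of Cyp2d1 and Cyp2d5, whose last 30 bases follow, with capitals for the bases after the shared run.
Cyp2d1, chr7:120769703-120769762, minus strand: ctgagccacgtttaataaaccagtcttTTG
Cyp2d5, chr7:120760436-120760495, minus strand: gagccacgtttaataaaccagtcttGAGGC
The values of Cyp2d1 and Cyp2d5 are therefore uncertain as values of separate genes. The probe of Cyp4a2, at chr5:135547423-135547482, lies between the probes of Cyp4a8, at chr5:135546881-135546940 and chr5:135547750-135547809, all on the minus strand of rn4, so that these 2 genes are uncertain too. The probes of Cyp7b1 and Cyp4f6, the genes whose NP and MSC arrays did not overlap, hold the hexamer AATAAA, shown in capitals within their last 30 bases.
Cyp7b1, chr2:103103702-103103761, minus strand: tcacaaaacctgtcataaAATAAAgcgctg
Cyp4f6, chr7:13609105-13609164, minus strand: cttgagatctctgAATAAAgaattaaataa
AATAAA, the signal before the site where the poly(A) tail is added, was in 8 of 97 Cyp probes (8.25%) and in 8.39% of all gene probes, and its reverse complement was in 2.06% and 2.86%.

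A minority of the P450 genes was detected in every kidney, and the role groups differed in how many. A probe was called detected where at least 0.5 of its spots were well above background in the scanner's own test. By that measure 36 of 80 Cyp genes were detected on all 9 arrays, 15 on some and 29 on none. Among probes, 43 of 97 (44.3%) were detected on all arrays against 56.5% of all gene probes, and 37 (38.1%) were detected on none against 24.6%. Each NP array detected 46 to 53 Cyp probes (median 47) and each MSC array 47 to 51 (median 48.5), so that the groups overlapped.

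All 4 vitamin D enzymes were detected on all arrays, as were 10 of 15 Cyp4 genes, among them all 4 of the Cyp4a subfamily. Of 13 Cyp2c and Cyp2j genes 5 were detected on all arrays. These were Cyp2c11, Cyp2c23, Cyp2c24, Cyp2j3 and Cyp2j4, while Cyp2c6v1, Cyp2c7, Cyp2c12 and Cyp2c13 were detected on none. Of 31 genes that mostly handle foreign compounds, 10 were detected on all arrays, 10 on some and 11 on none. The Cyp3a subfamily, the main drug oxidising group of the liver, was nearly silent, with 6 of its 7 genes on no array and Cyp3a85-ps, named as a pseudogene, on 1 NP array. Cyp1a2 was detected on no array, Cyp1a1 on 2 NP and 1 MSC arrays, and Cyp1b1 on 3 NP and 2 MSC arrays. Cyp7a1 and Cyp8b1, which make bile acids in the liver, and Cyp46a1, which clears cholesterol from the brain, were detected on no array. Of the defining liver markers, Apoa1 was detected on no array, Tat on 1 MSC array, Alb on 1 NP and 2 MSC arrays and Serpina1 on 5 NP and 1 MSC arrays, while Apoc3, Apoh and Fgb were detected on all.

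**Figure D1:**
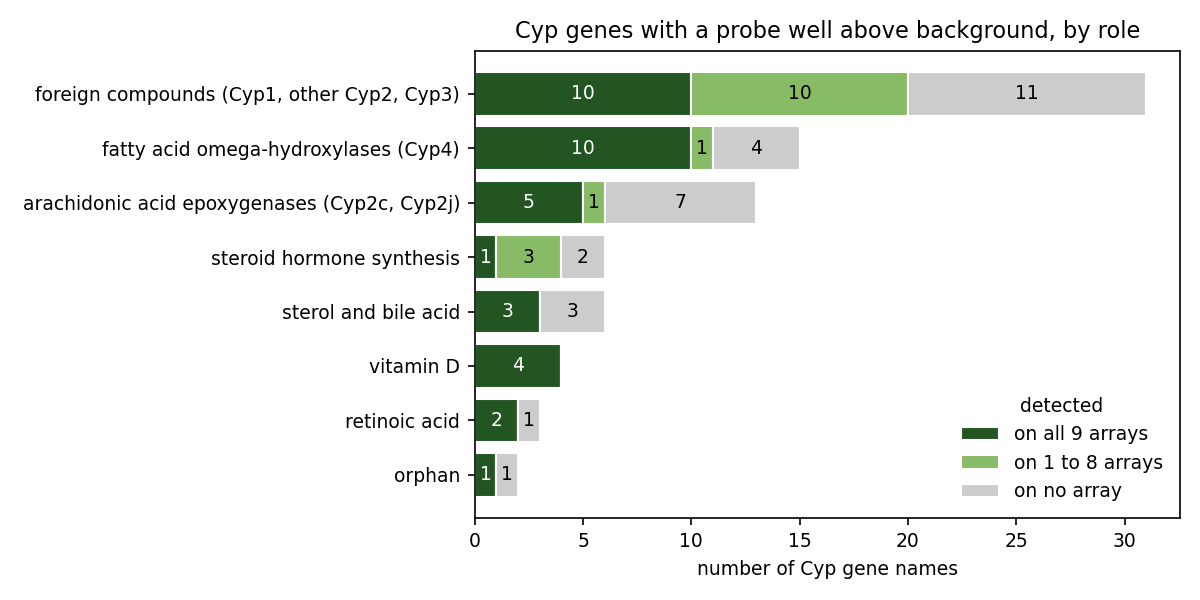
Horizontal bars give the number of Cyp gene names in each role group that had a probe well above background on all 9 arrays (dark green), on 1 to 8 arrays (light green) or on no array (grey). All 4 vitamin D genes and 10 of 15 Cyp4 genes fall in the dark part, against 10 of 31 genes for foreign compounds.

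Genes of adrenal steroid synthesis were at the edge of detection apart from Cyp21a1. Cyp11b1 and Cyp11b2, which complete corticosterone and aldosterone, were detected on no array. Cyp17a1 was detected on 4 NP and 4 MSC arrays and Cyp11a1, the first step of steroid synthesis, on 4 NP and 3 MSC arrays. Cyp17a1 stayed under the level needed for the test on all arrays and Cyp11a1 on all but MSC 3, so neither was tested. The adrenal gland lies against the kidney, and its defining markers were looked for beside them. Akr1b7 was detected on no array, Star and Mc2r on 1 MSC array each and Nr5a1 on 1 NP array, while Hsd3b1 and Mrap were detected on all.

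For the comparison of MSC with NP, log2 intensities without background subtraction were used, and probes had to exceed, on at least 4 arrays, the 95th percentile of the log2 negative controls multiplied by 1.1. This kept 40 of 97 Cyp probes (41.2%) and 52.2% of all gene probes. With the most variable probe taken for each gene, 33 Cyp genes entered the test among 13930 genes. Of the 33, 30 exceeded it on all 9 arrays, Cyp27b1 on 4 NP and 3 MSC arrays, Cyp2s1 on 2 NP and 4 MSC arrays and Cyp26a1 on 3 NP and 1 MSC arrays. Cyp2ab1, Cyp2u1 and Cyp39a1 were detected on all arrays but did not pass. The other Cyp genes without a test were the 15 detected on some arrays and the 29 detected on none. No level of a probe is set against that of another below.

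No P450 gene passed the test in limma, which asked for a fold change over 1.5 and an FDR under 0.05, and neither did any other gene (0% of 13930 in either direction). The smallest FDR of a Cyp gene was 0.333 and the smallest of all genes 0.0987. The study reported Tmem52b and Calb1 as higher in MSC kidneys by those thresholds, which was not found here. Calb1, on the list of distal nephron markers, had a log2 fold change of 1.13 with FDR 0.206 in limma. The cause of this difference was not tested. Of the 33 Cyp genes, 17 were higher in MSC samples and 16 lower, that is 51.5% higher against 48.6% of all genes. Their median log2 fold change was 0.05 against -0.01 for all genes, and the median size of the log2 fold change was 0.15 against 0.12. At an unadjusted p under 0.05 in limma stood 8 of 33 Cyp genes (24.2%) and 11.7% of all genes. Of these, 3 Cyp genes were higher (9.09% of those tested) where 6.6% of all genes were. By the same rule 5 were lower (15.2%) where 5.1% of all genes were. The 8 genes were Cyp7b1, Cyp2d2 and Cyp2s1 on the higher side and Cyp4f6, Cyp2f4, Cyp2d4, Cyp21a1 and Cyp2j3 on the lower side. The tested probe of Cyp2s1 exceeded the filter on 2 NP and 4 MSC arrays, and so passed through the group where it was higher. With the brightest probe of each gene the counts were 2 higher and 4 lower, against 6.25% and 5.21% of all genes. Cyp2s1 and Cyp2d4 were then no longer counted, so both shares depended in part on the choice of probe. With median scaling in place of cyclic loess the counts were 1 higher and 0 lower, against 2.07% and 4.03% of all genes. Within a slide, where fewer arrays are compared, they were at most 2 in either direction, against 3.56% higher and 2.23% lower of all genes within slide 1 and 3.67% and 4.19% within slide 2.

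**Figure D2:**
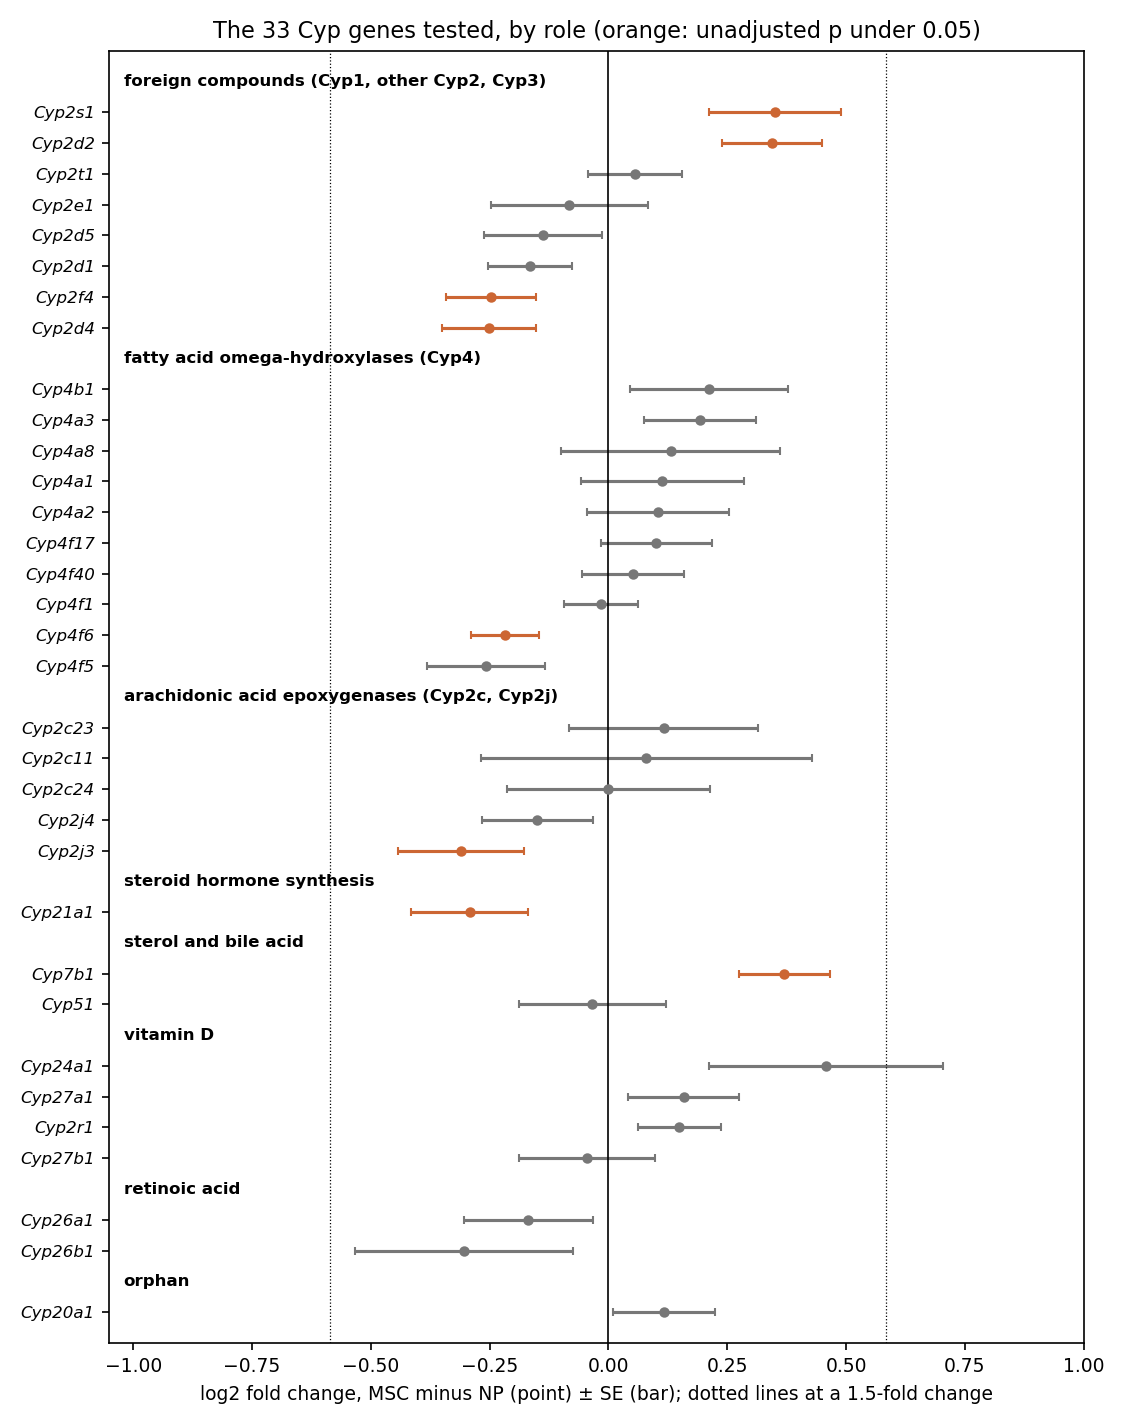
Points give the log2 fold change (MSC minus NP) of the 33 tested Cyp genes and bars its standard error, grouped by role, with dotted lines at a 1.5-fold change. The 8 genes in orange had an unadjusted p under 0.05 in limma, and no point lies beyond a dotted line.

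The vitamin D enzymes were all detected, and none of the 4 passed the test. Cyp24a1 had the largest log2 fold change of all tested Cyp genes in the comparison above. With processed signal scaled to the 75th percentile, that of Cyp2s1 was larger (0.90 against 0.74). Cyp2r1 and Cyp27a1 can hydroxylate vitamin D at the first step, Cyp27b1 makes the active hormone in the proximal tubule, and Cyp24a1 degrades it and is itself induced by the hormone through the receptor Vdr. Log2 intensity of Cyp24a1 was 11.78, 11.06, 10.78, 10.57 and 11.54 in NP samples 1 to 5 and 11.64, 11.98, 11.34 and 11.46 in MSC samples 1 to 4. The NP samples were spread more widely (SD 0.51) than the MSC samples (SD 0.28), with NP 1 and NP 5 inside the MSC range and the other 3 NP samples under it.

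The log2 fold change of Cyp24a1 was 0.46 ± 0.25 (SE; 1.37-fold), with p = 0.0925 and FDR 0.496 in limma and p = 0.159 in a two-sided exact permutation test over the 9 arrays. Its other probe, the one printed above and nearer the start of the transcript, gave a log2 fold change of 0.33 ± 0.14 (SE) with an FDR of 0.410 in limma (unadjusted p 0.038) when tested on its own. On that probe the log2 intensity was 8.93, 8.93, 8.66, 8.52 and 9.14 in NP samples and 9.28, 9.33, 9.09 and 8.95 in MSC samples. Both probes were lowest in NP 4 and highest in MSC 2, and on both of them the groups overlapped. With processed signal scaled to the 75th percentile the log2 fold change of Cyp24a1 was 0.74, and with normexp background correction before cyclic loess it was 0.49. It was 0.60 within slide 1 and 0.34 within slide 2.

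Cyp2r1 had log2 intensities of 9.16, 9.13, 9.07, 9.37 and 9.27 in NP samples and 9.26, 9.41, 9.44 and 9.27 in MSC samples. The 3 lowest values were NP 1, NP 2 and NP 3, and the other NP samples lay among the MSC samples. Its log2 fold change was 0.15 ± 0.09 (SE), with FDR 0.527 in limma and p = 0.0794 in the exact permutation test. It was 0.22 within slide 1, 0.03 within slide 2 and 0.32 with processed signal. Cyp27a1, a mitochondrial enzyme that also hydroxylates sterols, had log2 intensities of 10.02, 9.56, 9.53, 9.47 and 9.69 in NP samples and 9.78, 9.74, 9.79 and 9.95 in MSC samples. NP 1 was the highest of all 9 arrays and the other 4 NP samples were under every MSC sample. Its log2 fold change was 0.16 ± 0.12 (SE), with FDR 0.615 in limma and p = 0.230 in the exact permutation test. It was 0.05 within slide 1, 0.29 within slide 2 and 0.25 without NP 1.

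Cyp27b1, the activating enzyme, had no direction that held. Its log2 intensities were 8.86, 8.59, 8.89, 9.34 and 9.01 in NP samples and 8.96, 8.86, 9.06 and 8.69 in MSC samples, with both the highest and the lowest value among the NP samples. Its log2 fold change was -0.04 ± 0.14 (SE), with FDR 0.926 in limma and p = 0.833 in the exact permutation test. It was 0.13 within slide 1 and -0.30 within slide 2. The probe of Cyp27b1 was dim, with NP 2 and MSC 4 under the level of the filter (8.71 to 8.78 over the arrays). A difference in this gene may therefore be understated. The smallest p that the exact test can give with 5 and 4 arrays is 0.00794.

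**Figure D3:**
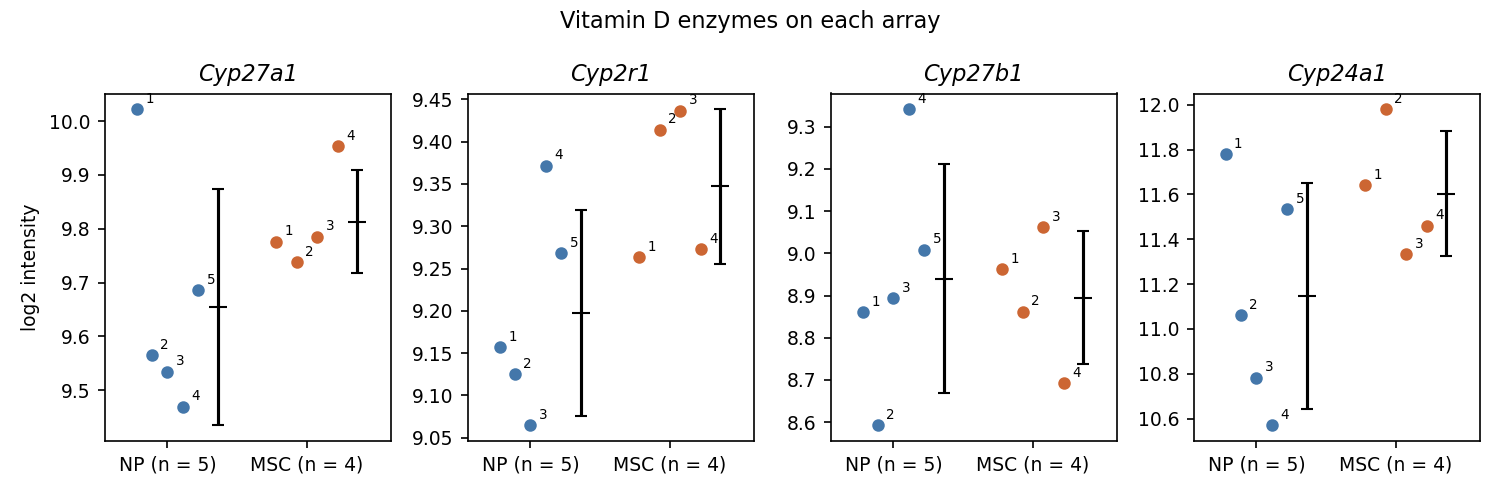
Log2 intensity of the 4 vitamin D enzymes on each array, NP in blue and MSC in orange, with the replicate number beside each point and the mean ± SD of each group as a black bar. For Cyp24a1 and Cyp27a1 most NP samples lie under the MSC samples but NP 1 does not, and for Cyp27b1 the groups lie on each other; each panel has its own scale.

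The other genes of vitamin D handling gave no call. Of 9 listed genes all were tested, with 3 higher and 6 lower. At an unadjusted p under 0.05 in limma stood 0 of the 9, against 11.7% of all genes. Vdr, the receptor of the hormone, had log2 intensities of 10.31, 12.32, 11.23, 10.58 and 10.81 in NP samples and 10.55, 10.98, 10.36 and 10.92 in MSC samples. NP 2 stood above the rest, and the log2 fold change was -0.35 ± 0.36 (SE) with FDR 0.726 with a range from -0.53 without NP 1 to -0.03 without NP 2. Cubn and Lrp2, which take up vitamin D with its carrier in the proximal tubule, had log2 fold changes of 0.18 and -0.20, and the klotho gene Kl one of -0.01.

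Among the Cyp4 genes 7 of 10 tested were higher and 3 lower, with a median log2 fold change of 0.10. The 4 Cyp4a genes all had positive values, 0.19 ± 0.12 for Cyp4a3, 0.13 ± 0.23 for Cyp4a8, 0.11 ± 0.17 for Cyp4a1 and 0.10 ± 0.15 for Cyp4a2 (log2 fold change ± SE), each with an FDR over 0.5. The values of Cyp4a2 ran from 17.96 in NP 1 to 18.73 in MSC 4 and those of Cyp4a3 from 17.39 to 18.09 between the same arrays. Leaving out 1 array moved each of them by over 1.5 times. The range was 0.11 (without MSC 4) to 0.26 (without MSC 1) for Cyp4a3, -0.07 (without NP 3) to 0.28 (without NP 2) for Cyp4a8, 0.02 (without NP 2) to 0.22 (without NP 4) for Cyp4a1 and -0.0020 (without MSC 4) to 0.19 (without MSC 1) for Cyp4a2. On the other probe of Cyp4a8 the log2 fold change was -0.0048, so that the positive value of this gene belonged to 1 of its 2 probes. Cyp4b1, known for activating plant and fungal toxins in the lung, had 0.21 ± 0.17, with 0.10 without MSC 3 and 0.34 without MSC 2.

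Cyp4f enzymes hydroxylate leukotrienes and other eicosanoids, and Cyp4f6 was the only tested Cyp gene whose MSC samples all lay under the NP samples (2.15% of all tested genes did). Its log2 intensity was 13.92, 14.05, 14.07, 13.96 and 13.88 in NP samples and 13.80, 13.77, 13.74 and 13.74 in MSC samples. The SD was 0.03 among MSC samples and 0.08 among NP samples on the log2 scale. MSC minus NP gave a log2 fold change of -0.22 ± 0.07 (SE; 0.860-fold), with FDR 0.335 in limma (unadjusted p 0.0124). It was -0.23 within slide 1 and -0.18 within slide 2.

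Cyp4f5 had a log2 fold change of -0.26 ± 0.12 (SE) with FDR 0.457, and its groups overlapped. Cyp4f1, Cyp4f17 and Cyp4f40 had -0.02, 0.10 and 0.05, with ranges of -0.05 to 0.02, 0.03 to 0.16 and -0.0024 to 0.11 when 1 array was left out. Their positions on rn4 chromosome 7 lie within the same region as Cyp4f5 and Cyp4f6, and the directions within this cluster were mixed.

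Of the arachidonic acid epoxygenases, Cyp2j3 had an unadjusted p under 0.05 and the Cyp2c genes were spread widely within both groups. Cyp2j3 had log2 intensities of 9.56, 9.97, 9.57, 9.35 and 9.29 in NP samples and 9.29, 9.30, 9.13 and 9.22 in MSC samples. NP 2 was the highest, and NP 5 lay among the MSC samples. The log2 fold change was -0.31 ± 0.13 (SE; 0.806-fold), with FDR 0.413 in limma (unadjusted p 0.0410). It was -0.40 within slide 1, -0.14 within slide 2 and -0.20 without NP 2. The second probe of the gene, which exceeded the filter on NP 2 alone and was not tested, gave -0.14. Cyp2j4 had -0.15 ± 0.12 (SE), with -0.09 without NP 1 and -0.21 without NP 5.

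Cyp2c23, the main arachidonic acid epoxygenase of the rat kidney, ran from a log2 intensity of 17.42 in NP 1 to 18.44 in MSC 4. NP 2 was close under the top at 18.41. MSC minus NP gave 0.12 ± 0.20 (SE) on the log2 scale with FDR 0.850. The range was -0.02 without NP 1 to 0.23 without NP 2. Cyp4a2 and Cyp4a3 were lowest and highest on the same arrays as Cyp2c23. So were the bright kidney markers Miox, Umod, Slc34a1 and Slc7a13, so this was not particular to Cyp genes. Slc22a6 and Slc22a8 were also lowest in NP 1 but were highest in NP 3 and NP 4. Cyp2c11, which the male rat liver makes in quantity, ranged from 11.06 in NP 2 to 12.79 in NP 3, both in the NP group, with 12.74 in MSC 1. MSC minus NP gave 0.08 ± 0.35 (SE) here, the widest error of the 33 genes, with a range from -0.18 without MSC 1 to 0.31 without NP 3. Cyp2c24 had 0.00 ± 0.21 on the tested probe (-0.11 without MSC 1 to 0.13 without NP 1) and -0.19 ± 0.18 (SE) on its other one, with an FDR of 0.701 in limma.

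**Figure D4:**
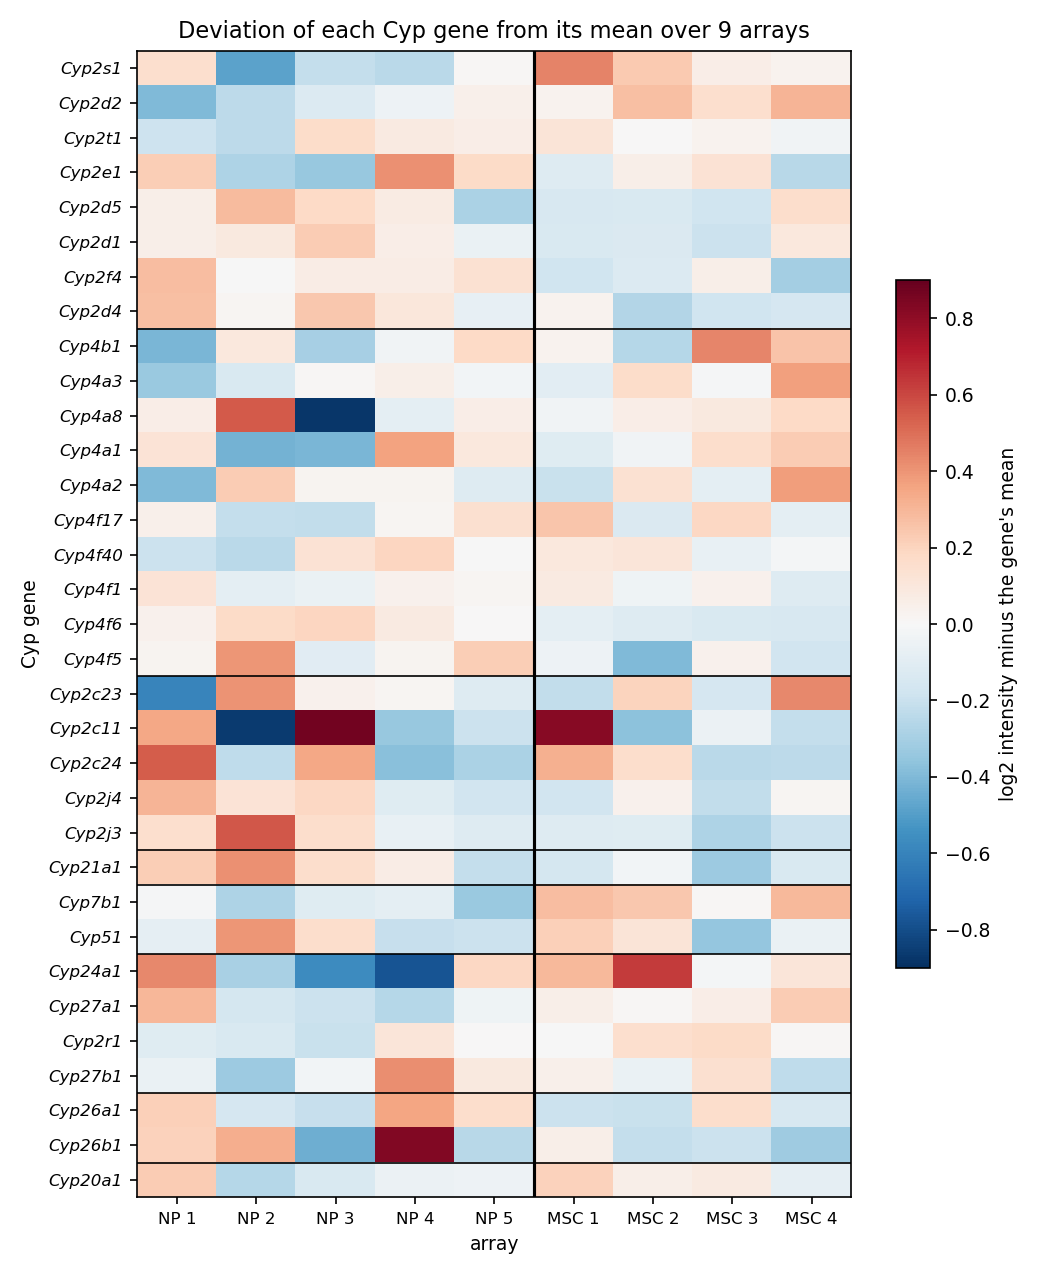
Each row is a tested Cyp gene and each column an array, with the colour giving the log2 intensity minus the mean of the gene over the 9 arrays (red above, blue below), thin lines between role groups and a thick line between NP and MSC. Strong colours stand within the NP group for Cyp2c11, Cyp26b1 and Cyp4a8, while Cyp4f6 and Cyp7b1 change sides at the thick line with small deviations.

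Among the genes for foreign compounds, 3 of 8 tested were higher and 5 lower, with a median log2 fold change of -0.11. The Cyp2d genes, drug oxidising enzymes that lie beside each other on rn4 chromosome 7, differed among themselves. Cyp2d2 had log2 intensities of 11.45, 11.61, 11.73, 11.80 and 11.89 in NP samples and 11.88, 12.12, 12.00 and 12.16 in MSC samples. NP 5 and MSC 1 met, and all other MSC samples lay above every NP sample. Its log2 fold change was 0.34 ± 0.11 (SE; 1.27-fold), with FDR 0.335 in limma (unadjusted p 0.00886), 0.41 within slide 1 and 0.23 within slide 2.

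Cyp2d4 had log2 intensities of 11.29, 11.04, 11.26, 11.12 and 10.94 in NP samples and 11.05, 10.76, 10.84 and 10.87 in MSC samples. Only MSC 1 lay within the NP range. MSC minus NP gave a log2 fold change of -0.25 ± 0.10 (SE; 0.840-fold), with FDR 0.393 in limma (unadjusted p 0.0288), but the probe of the gene that is printed above gave -0.05 with an FDR of 0.859. The value of Cyp2d4 thus held for 1 of 2 probes. Cyp2d1 and Cyp2d5, whose probes share most bases, had -0.16 ± 0.09 and -0.14 ± 0.12, the latter with -0.08 without NP 2 and -0.22 without NP 5, and Cyp2d3 was detected on 2 NP and 1 MSC arrays and not tested.

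Cyp2f4, a member of the lung's naphthalene activating subfamily, had log2 intensities of 11.58, 11.30, 11.37, 11.38 and 11.44 in NP samples and 11.12, 11.18, 11.36 and 11.00 in MSC samples. MSC 3 lay within the NP range and the other MSC samples under it. MSC minus NP gave a log2 fold change of -0.25 ± 0.09 (SE; 0.842-fold), with FDR 0.386 in limma (unadjusted p 0.0252). It was -0.27 within slide 1 and -0.23 within slide 2.

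Cyp2s1, which is induced by dioxin in epithelial cells, had log2 intensities of 9.02, 8.39, 8.65, 8.62 and 8.88 in NP samples and 9.31, 9.10, 8.93 and 8.90 in MSC samples. NP 1 lay inside the MSC range and the other NP samples under it. The log2 fold change was 0.35 ± 0.14 (SE; 1.28-fold), with FDR 0.396 in limma (unadjusted p 0.0310). This probe exceeded the filter on 2 of 5 NP and all 4 MSC arrays, so it passed through the group where it was higher. The brightest probe of the gene gave 0.18 with an unadjusted p of 0.145 in limma, and so no longer had one under 0.05. The other probe gave 0.27, processed signal scaled to the 75th percentile gave 0.90, normexp background correction gave 0.49, and median scaling gave 0.16. The size of this value thus depended on the probe and the scale, and its sign did not. Cyp2e1, which oxidises ethanol and acetone, had -0.08 ± 0.17 (-0.18 without NP 3 to 0.01 without NP 4), and Cyp2t1 had 0.06 ± 0.10 (0.0027 without NP 2 to 0.10 without NP 3).

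Cyp7b1 had the smallest p of all tested Cyp genes and was the only one whose MSC samples all lay above the NP samples (3.12% of all tested genes did). Its product hydroxylates oxysterols on the alternative route to bile acids and clears some steroids. Log2 intensity was 10.01, 9.75, 9.91, 9.94 and 9.69 in NP samples and 10.30, 10.27, 10.04 and 10.32 in MSC samples. The gap was narrow, between NP 1 and MSC 3. Its log2 fold change was 0.37 ± 0.10 (SE; 1.29-fold), with FDR 0.333 in limma (unadjusted p 0.00329). It was 0.39 within slide 1, 0.36 within slide 2 and 0.42 without MSC 3 and MSC 4. Cyp51, which removes a methyl group from lanosterol in cholesterol synthesis, had -0.03 ± 0.15, with a range from -0.11 without MSC 1 to 0.08 without MSC 3.

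**Figure D5:**
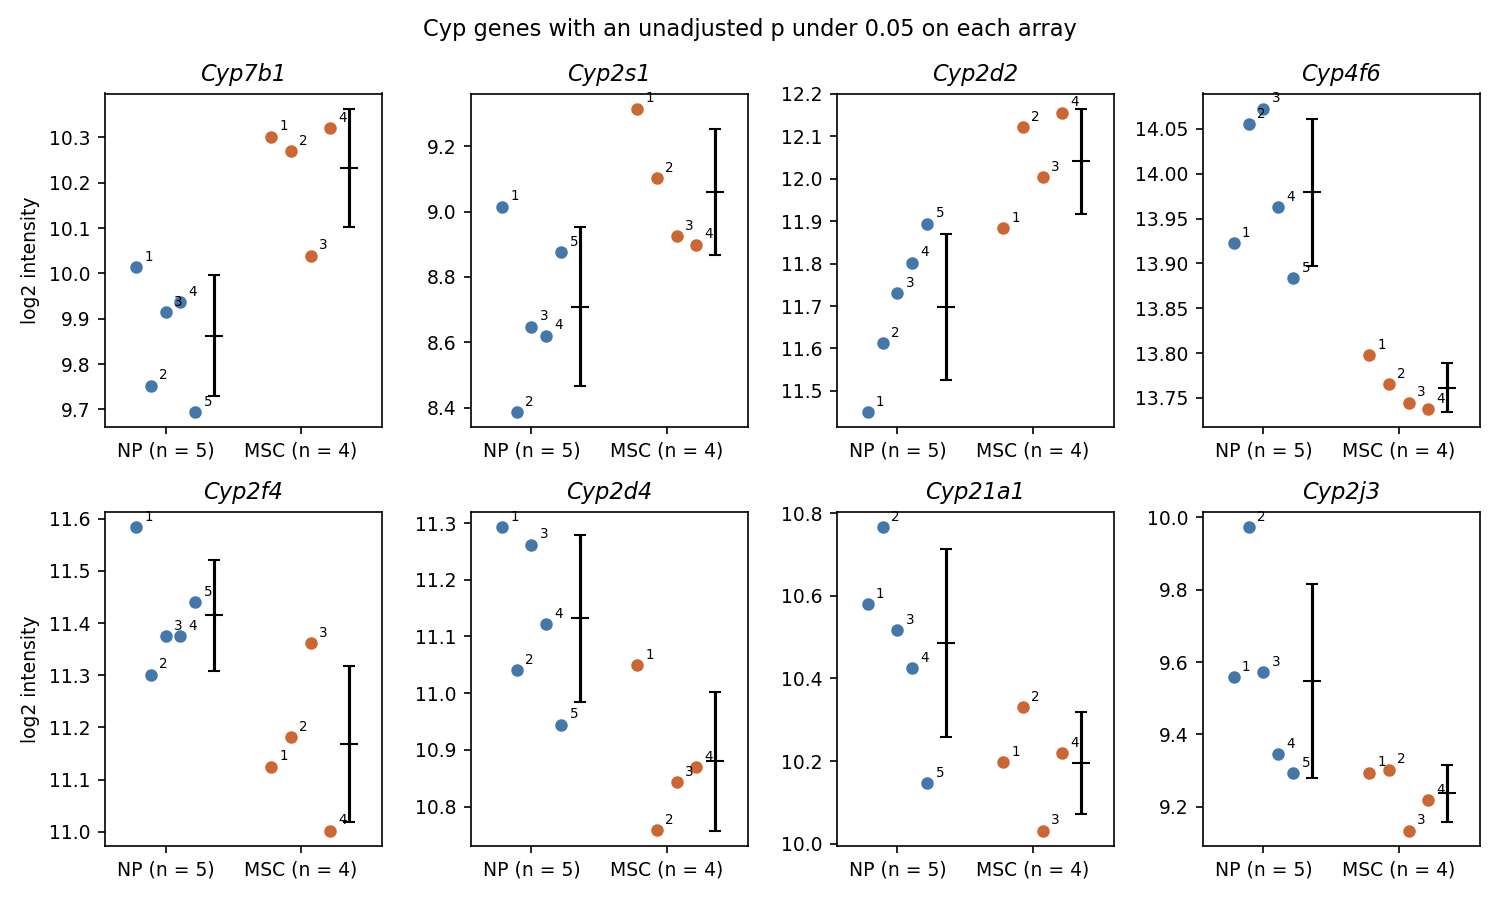
Log2 intensity on each array of the 8 Cyp genes with an unadjusted p under 0.05 in limma, ordered from the highest to the lowest log2 fold change, NP in blue and MSC in orange, with replicate numbers and the mean ± SD of each group as a black bar. The groups are apart for Cyp7b1 and Cyp4f6 and overlap for the other 6 genes; each panel has its own scale.

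Cyp21a1, the steroid hydroxylase of the adrenal cortex, was the only gene of steroid synthesis that could be tested. Its log2 intensity was 10.58, 10.77, 10.52, 10.43 and 10.15 in NP samples and 10.20, 10.33, 10.03 and 10.22 in MSC samples. NP 5 lay among the MSC samples and the other NP samples above them. MSC minus NP gave a log2 fold change of -0.29 ± 0.12 (SE; 0.817-fold), with FDR 0.409 in limma (unadjusted p 0.0396). It was -0.36 within slide 1 and -0.16 within slide 2. Of the adrenal cortex markers above, Hsd3b1 and Mrap were the only ones tested. Their log2 fold changes were -0.10 ± 0.15 and -0.41 ± 0.26 (SE), with FDR 0.833 and 0.553 in limma. Their groups overlapped, and the highest array was NP 1 for Hsd3b1 (11.21) and NP 3 for Mrap (15.31).

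The enzymes that break down retinoic acid were both lower in the mean and neither had an unadjusted p under 0.05. Cyp26b1 had log2 intensities of 10.06, 10.18, 9.42, 10.69 and 9.61 in NP samples and 9.91, 9.64, 9.66 and 9.54 in MSC samples. The NP samples lay on both sides of the MSC samples. The log2 fold change was -0.30 ± 0.23 (SE) with FDR 0.622, -0.11 within slide 1 and -0.55 within slide 2. Without NP 4, the highest array, it was -0.13, and without NP 3, the lowest, -0.45. Cyp26a1 had -0.17 ± 0.14 (SE) with FDR 0.645, with -0.10 without NP 4 and -0.25 without MSC 3, and Cyp26c1 was detected on no array.

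Cyp20a1, an orphan enzyme with no settled substrate, had log2 intensities of 12.15, 11.67, 11.79, 11.87 and 11.88 in NP samples and 12.13, 11.97, 12.01 and 11.84 in MSC samples. The groups overlapped, and the log2 fold change was 0.12 ± 0.11 (SE) with FDR 0.686. It was 0.19 without NP 1, 0.066 without NP 2 and 0.070 without MSC 1.

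Of 61 listed partners of the P450 enzymes 50 were tested, with 21 higher, 29 lower and 0 passing the test in limma. At an unadjusted p under 0.05 there were 5 higher and 4 lower (10% and 8%, against 6.6% and 5.1% of all genes). Of 10 tested genes of electron transfer, 2 were higher and 1 lower by that rule. The donors Por, Cyb5a, Fdx1 and Fdxr had log2 fold changes of -0.16 ± 0.14 for Por, -0.02 ± 0.10 for cytochrome b5 (Cyb5a), -0.01 ± 0.11 for Fdx1 and -0.02 ± 0.07 for Fdxr. Cyb5r1, a cytochrome b5 reductase, had 0.99 ± 0.24 with FDR 0.333, and all its MSC samples lay above the NP samples. Cyb5b had 0.18 and Fdx1l -0.24, both with an unadjusted p under 0.05 in limma. Pgrmc1, a haem protein that binds P450 enzymes, had 0.29 ± 0.25 with FDR 0.667. Its log2 intensity was 11.57 in NP 1, against 12.56 to 12.97 on the other arrays.

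Ephx2, the soluble epoxide hydrolase that removes the epoxides made by Cyp2c and Cyp2j enzymes, had a log2 fold change of 0.32 ± 0.10 with FDR 0.335, and its groups did not overlap. Ephx1, the microsomal epoxide hydrolase, had 0.28 ± 0.11 with FDR 0.386. Ptges, a prostaglandin E synthase, had 0.55 ± 0.16 with FDR 0.335. The haem enzyme Blvrb had -0.27, and none of the other 11 genes of haem synthesis and breakdown had an unadjusted p under 0.05. Of the factors that control Cyp genes, 3 of 14 tested were higher and 11 lower, with Nr0b2 at -0.48 and Nr1h3, the liver X receptor alpha, at -0.25 as those with an unadjusted p under 0.05.

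Marker lists of other cells differed between arrays, and no marker gene passed the test in limma. Counted at an unadjusted p under 0.05 in limma, 62.5% of distal nephron and 50% of perirenal fat markers were higher. By that rule 25% of stromal and 20% of proximal tubule markers were higher. Of the blood genes 60% and of adrenal medulla markers 33.3% were lower. In each of these lists 0% went the other way. Of all genes 6.6% were higher and 5.1% lower. All 10 markers of the proximal tubule and all 8 of the distal nephron were detected on all arrays. As the mean log2 deviation from their means over the arrays, proximal tubule markers ran from -0.41 in NP 1 to 0.10 in NP 4 and from 0.04 to 0.13 in MSC samples, and their median log2 fold change was 0.16, with 8 of 10 higher. The distal nephron markers were higher in 8 of 8, with a median of 0.52. On the same deviation scale, perirenal fat markers stood at 2.28 in MSC 3 and 1.44 in MSC 4 and from -1.06 to 0.07 on the other arrays, with Lep detected on no array and Plin1 on 1. Of 5 blood genes tested 3 were lower, Hbb, Hba1 and Alas2 with log2 fold changes of -1.68, -1.80 and -1.74, and 2 higher, Cd68 with 0.19 and Ptprc with 0.22. MSC 1 was the lowest array for Hbb, at 10.21 against 12.37 to 14.43 on the other MSC arrays and 13.64 to 14.91 in NP samples. Without MSC 1 the 3 lower genes had -1.12 to -0.86. The part of these markers in the values of the Cyp genes was not tested. Without MSC 3 and MSC 4, 2 Cyp genes were higher and 1 lower at an unadjusted p under 0.05 in limma, against 3.82% and 2.68% of all genes.

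The arrays were similar in detection and correlation but differed in other measures. Before normalization the median intensity ran from 577 on MSC 4 to 917 on MSC 3. The SD of replicate spots was, in the median, 10.3% of their mean on NP 2. It was 3.74% to 7.06% on the other arrays. Between 67.7% and 72.9% of gene spots were well above background in NP samples and between 65.6% and 74.3% in MSC samples. Across genes, which are not independent replicates, Pearson's r lay between 0.962 and 0.997 for 2 arrays of a group and between 0.968 and 0.993 for an NP and an MSC array. The arrays were on 2 slides. Slide 1 held NP 1, NP 2, NP 3, MSC 1 and MSC 2, and slide 2 the other 4 arrays.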

How the data were processed

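Cy3-labelled cRNA of each kidney was hybridised by the authors to an Agilent SurePrint G3 rat array of 1 colour. The authors deposited the spot intensity values of Agilent Feature Extraction 10.7.3.1 with their outlier and background flags, and a table of normalized log2 values. Here log2 mean pixel intensities were normalized by cyclic loess without background subtraction. The 273 to 593 flagged gene spots per array were left out, and control spots had a weight of 0. No gene spot was saturated. Over 15837 probes, Pearson's r between these and the deposited log2 values of an array was 0.999898 to 0.999973. Without background subtraction, fold changes of dim probes are understated.

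Probes were filtered as in the study's methods, read as above 1.1 times the 95th percentile of log2 negative controls on at least 4 arrays. Spots of a probe were averaged, and the most variable probe was kept for each gene. MSC and NP arrays were compared over all 13930 genes in limma 3.58.1 (R 4.3.3) with the Benjamini-Hochberg FDR, and vitamin D enzymes also by a two-sided exact permutation test. The number of arrays limits the precision. The methods describe removal of the left kidney alone, so arrays were taken as separate rats.

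The Cyp genes, the marker and partner lists and the tests were chosen with earlier results of these data known. Values on each array are given for the vitamin D enzymes, for Cyp genes with an unadjusted p under 0.05 and for the gene with the smallest p of each role, with Vdr and a probe of Cyp24a1 not used in the test. Partner genes are named where the unadjusted p was under 0.05, with Por, Cyb5a, Fdx1, Fdxr and Vdr, and other genes were chosen after their values were seen. Array names were used. Of 97 Cyp probes 84 had an accession in a current RefSeq table (GRCr8), and for 2 of these the entry differed. Cyp3a23/3a1 is spelled Cyp3a23-3a1 there, and a probe of Cyp2b2 matched Cyp2b1 as well as Cyp2b2. The files place 95 probes on rn4, and that of Cyp27b1 is not among them. No rn4 annotation of exons was used here. Markers of adrenal medulla, S3 segment, injured tubule, endothelium, stromal cells and liver were also listed, with median log2 fold changes of -0.01, -0.08, 0.19, 0.01, 0.43 and 0.09 over the genes tested, and a list for sex had no gene on the array. Alternatives took other intensity columns, background corrections, normalizations, filters, probes, variance models, blocks by slide or replicate number, single slides, each array left out, and the deposited values.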

Additional observations from a re-analysis of the deposited data

How the results depend on the processing

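Across 29 alternatives 0 Cyp genes passed the FDR and fold thresholds in limma in each. Of the 14 Cyp genes with values on each array, 13 kept their direction in all 29. Cyp27b1 did in 26, with a range of -0.13 to 0.056 when 1 array was left out, and with log2 fold changes of 0.13 within slide 1, 0.056 without NP 4 and 0.02 without MSC 4. Cyp7b1 had an unadjusted p under 0.05 in 29 of 29, Cyp2d2 in 26, Cyp4f6 in 24, Cyp2f4 and Cyp2s1 in 20, Cyp21a1 in 17, Cyp2j3 in 16 and Cyp2d4 in 15. Cyp24a1 had it in 4, Cyp27a1 in 2 and Cyp2r1, Cyp27b1, Cyp26b1 and Cyp20a1 in 0. The count of lower Cyp genes at an unadjusted p under 0.05 (5 as reported, 5.1% of all genes) was 2 with processed signal (4%), 1 with scaling to the 75th percentile (2.94%), 0 with median scaling (4.03%), 2 within slide 1 (2.23%), 0 within slide 2 (4.19%) and 1 without the arrays high in fat markers (2.68%), a setting chosen after seeing the data. The count of higher genes (3 as reported, 6.6% of all genes) was 1 with median scaling (2.07%), 5 with array weights (8.09%) and 1 within slide 2 (3.67%). Leaving out 1 array gave 2 to 5 lower and 2 to 5 higher genes (3.3% to 9.27% and 4.92% to 7.36% of all genes), with 5 higher and 2 lower without NP 1 (7.36% and 9.27%), 2 lower without MSC 1 (3.55%) or MSC 4 (3.69%), and 3 lower without NP 2 (4.12%), NP 3 (3.53%), MSC 2 (3.85%) or MSC 3 (3.3%). The median log2 fold change was then -0.045 (without MSC 1) to 0.075 (without MSC 3), against 0.05. The cause was not tested, other than that single slides and left-out arrays hold fewer samples.

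Same-numbered NP and MSC arrays deviated together in part, with r over 0.1 in 2 of 4 pairs. Of 8 arrays 4 were closest to their own number. Pearson's r was 0.20 for number 1, 0.32 for number 2, -0.35 for number 3 and 0.05 for number 4. NP 3 and MSC 3 were on different slides, and each other pair shared a slide. Number and slide thus cannot be fully told apart, and the numbers were not taken as pairs. With the replicate number as a block, 4 Cyp genes were higher and 4 lower at an unadjusted p under 0.05 (6.27% and 5.03% of all genes), and 0 passed the FDR and fold thresholds. The log2 fold change of Cyp24a1 was then 0.56, with FDR 0.401 in limma.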
